A study of Mus musculus with 6 samples.

Results

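The glutathione S-transferases (Gst), microsomal glutathione S-transferases (Mgst), UDP-glucuronosyltransferases (Ugt), sulfotransferases (Sult) and carboxylesterases (Ces) were followed in mouse jejunal epithelium after induction of MSI2, an RNA-binding protein of the Musashi family. The genes were taken by name, as those whose symbol begins with Gsta, Gstm, Gsto, Gstp, Gstt, Mgst, Ugt, Sult or Ces followed by a digit, on probe sets annotated with 1 gene. Where a gene had 2 such probe sets, the one with the higher mean over the arrays was used. This gave 63 of 19933 measured genes, comprising 17 Gst, 3 Mgst, 11 Ugt, 16 Sult and 16 Ces genes. A further 17 symbols of these families, among them Gsta1, Gsta2 and 8 genes of the Ugt1a locus, stood only on probe sets that name several genes and were kept apart.

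Conjugation with glutathione, glucuronic acid or sulfate makes drugs, dietary compounds, steroids and bile acids more soluble, and is called the second phase of detoxification. Carboxylesterases split esters, amides and acylglycerols, which activates or inactivates ester drugs and releases fatty acids. The epithelium of the small intestine is, beside the liver, a major site of these reactions, and its villus cells export the conjugates back into the lumen or into the blood.

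The 3 MSI2-induced mice had the genotype TRE-MSI2::R26-M2rtTA, a tetracycline-responsive MSI2 transgene with the M2rtTA transactivator at the Rosa26 locus. The 3 control mice had the genotype R26-M2rtTA, the transactivator alone. Both groups drank doxycycline, which activates the transactivator, for 24 hours before total epithelial cells were taken from the jejunum. Rosa26 is active in most cell types, so the transgene was not limited to the epithelium by that locus, and the age of the mice and the number of transgenic founder lines are not given in the sources used here. Each sample gave 1 Affymetrix Gene 1.0 ST array, on which a probe set reads the exons of a gene as a log2 intensity. The labels call the samples biological replicates. Sex, read from Xist and Y-linked genes on the arrays, was not balanced between the groups. MSI2-induced replicates 1 and 2 and control replicate 2 were male, and MSI2-induced replicate 3 and control replicates 1 and 3 were female.

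The probe sets of the targeted gene were examined first. Msi2 read 11.23, 10.58 and 11.44 in MSI2-induced replicates 1 to 3, against 11.30, 9.53 and 9.32 in control replicates 1 to 3. The array labelled control replicate 1 thus lay among the MSI2-induced arrays, and the difference did not pass the test (log2 fold change 1.03, adjusted p = 0.257; 0.00958 without that array). Msi1, the paralog of Msi2, read 13.44, 12.82 and 13.53 in MSI2-induced arrays and 7.20, 7.97 and 7.62 in control arrays (log2 fold change 5.66, adjusted p = 0.000818). Which of these probe sets reads transgene RNA was not tested, so the group name follows the genotype and not a measured rise of Msi2. All groups below are those of the labels, and counts are also given without the array labelled control replicate 1, which the second principal component set apart from the other arrays.

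Of the 63 genes, 17 fell and 3 rose in MSI2-induced epithelium, and 43 did not pass the test, which was limma with Benjamini-Hochberg adjustment over all 19933 genes at a threshold of 0.05. The share that fell was 27.0%, against 9.65% of all genes, and the share that rose was 4.76%, against 8.97% of all genes. The genes that fell were Gstm1, Gstm3, Gstm4, Gstm7, Gstp1, Gstt2, Gstt3, Mgst2, Mgst3, Ugt2a3, Ugt2b34, Ugt2b36, Sult1b1, Ces1e, Ces1g, Ces2a and Ces2g. Their levels were 1.71 to 9.19 times lower, with a median of 2.90, and 16 of the 17 were at least 2-fold lower. The genes that rose were Sult6b2, Sult1a1 and Gstm5. Over all 63 genes the median log2 fold change (MSI2-induced minus control) was -0.18, against 0.02 over all genes.

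The groups did not overlap for 26 of the 63 genes in the lower direction, where 17.5% of all genes did so, and for 4 in the higher direction, where 19.5% did so. When the replicate number entered the fit as a block, 25 of the 63 genes fell, against 13.1% of all genes, and 3 rose, against 12.7%. Without the array labelled control replicate 1, 23 fell, against 14.4% of all genes, and 4 rose, against 13.4%. In each of the 6 fits that left out 1 array, the 20 called genes kept their direction. Only Gstm3, Ugt2b34, Ces2a and Sult6b2 stayed past the threshold in all 6 of these fits, and the number of the 63 genes that fell ranged from 4 (without MSI2-induced replicate 3 or without control replicate 2) to 23. Calls over all genes also became fewer or more with the array left out, and their range is given below with the processing. Without the array labelled control replicate 1, Gstm6, Gstt1, Gsto1, Ugt2b38, Ugt2b5, Ces1c and Ces2b also fell and Gsta4 and Ugt2b35 also rose, while Gstm5 and Ces1g lost their calls. For the called genes of the 5 families, the array whose omission gave the highest adjusted p is named below with that value. Most of these genes lost their call in other such fits too. Gstm1, Gstm4, Gstm7, Gstp1, Gstt2, Gstt3, Mgst2, Sult1a1, Sult1b1, Ces1g and Ces2g passed in only 2 of the 6 fits, and Gstm5 in 1. Mgst3, Ugt2a3 and Ugt2b36 passed in 3 and Ces1e in 5.

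**Figure D1:**
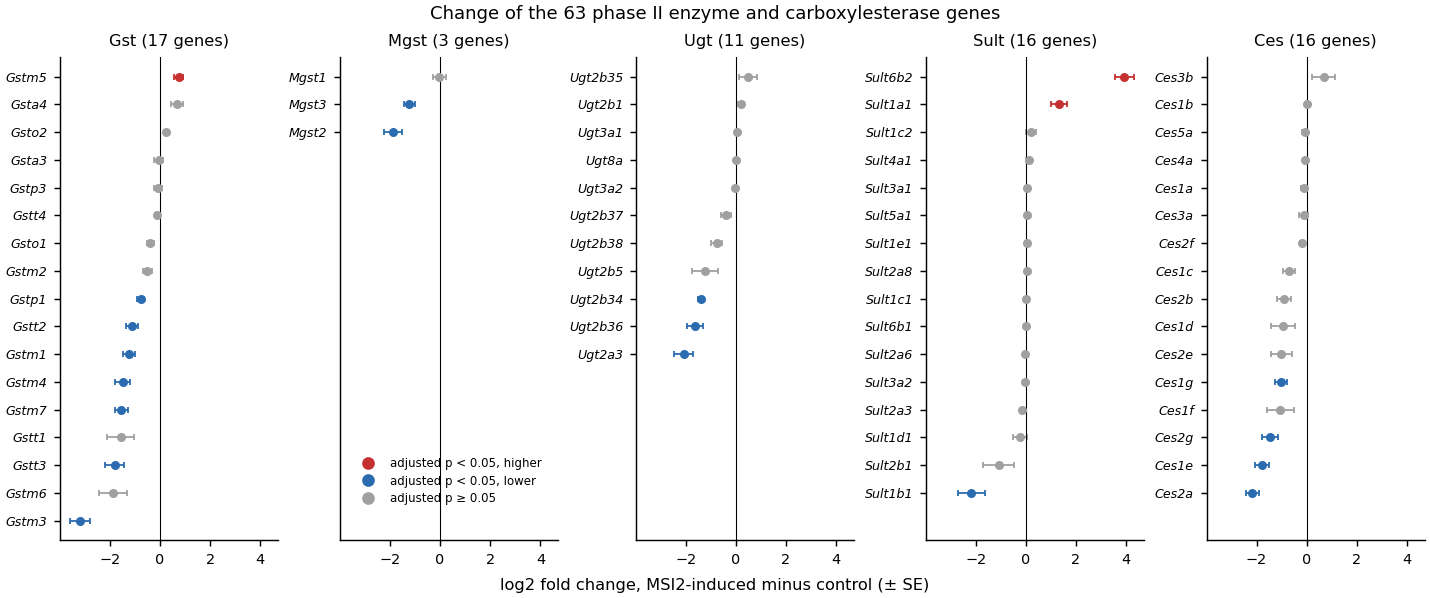
Log2 fold changes (MSI2-induced minus control, horizontal axis, bars ± SE) of the 63 genes, one point a gene, in 1 panel per family and coloured by the call. Sult6b2 lies farthest to the right at 3.92 and Gstm3 farthest to the left at -3.20, and 17 of the 20 called genes lie below 0.

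The regions upstream of 6 genes are shown because these genes carry the changes described below: Gstm3, Mgst2, Ugt2a3 and Ces2a fell, and Sult6b2 and Gstm5 rose. Each sequence is the 250 bases before the transcription start on the gene's strand, 5′ to 3′, from RefSeq (GRCm38.p6), and capitals mark matches to the motifs named after the sequences. The regions are chr3:107969175-107969424 (minus strand) for Gstm3, chr3:107895604-107895853 (plus) for Gstm5, chr3:51660929-51661178 (plus) for Mgst2, chr5:87337196-87337445 (minus) for Ugt2a3, chr8:104733753-104734002 (plus) for Ces2a and chr6:142804467-142804716 (minus) for Sult6b2.
Gstm3: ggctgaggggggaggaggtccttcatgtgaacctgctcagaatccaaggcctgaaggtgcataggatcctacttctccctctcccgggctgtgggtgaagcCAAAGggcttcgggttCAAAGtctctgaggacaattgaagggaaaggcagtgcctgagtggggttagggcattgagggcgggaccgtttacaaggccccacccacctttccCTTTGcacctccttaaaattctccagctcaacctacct
Gstm5: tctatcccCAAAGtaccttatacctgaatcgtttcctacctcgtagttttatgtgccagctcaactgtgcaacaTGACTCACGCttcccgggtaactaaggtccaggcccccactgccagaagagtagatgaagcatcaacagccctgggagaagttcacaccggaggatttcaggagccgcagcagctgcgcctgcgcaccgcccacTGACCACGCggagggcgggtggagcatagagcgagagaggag
Mgst2: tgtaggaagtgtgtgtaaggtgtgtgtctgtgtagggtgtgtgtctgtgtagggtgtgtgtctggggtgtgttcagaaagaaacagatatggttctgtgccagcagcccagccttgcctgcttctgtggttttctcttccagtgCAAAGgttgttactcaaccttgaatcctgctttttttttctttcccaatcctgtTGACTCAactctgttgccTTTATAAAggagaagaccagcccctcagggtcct
Ugt2a3: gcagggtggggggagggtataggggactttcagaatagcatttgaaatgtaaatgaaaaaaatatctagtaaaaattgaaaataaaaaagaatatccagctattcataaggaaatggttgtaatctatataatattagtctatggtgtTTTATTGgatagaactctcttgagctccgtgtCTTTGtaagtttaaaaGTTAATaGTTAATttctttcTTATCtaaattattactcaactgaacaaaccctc
Ces2a: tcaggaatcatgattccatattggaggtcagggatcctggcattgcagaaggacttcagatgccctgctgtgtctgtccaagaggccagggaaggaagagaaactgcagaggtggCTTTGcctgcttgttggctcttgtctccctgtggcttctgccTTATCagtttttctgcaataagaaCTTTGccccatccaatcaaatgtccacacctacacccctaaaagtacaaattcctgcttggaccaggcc
Sult6b2: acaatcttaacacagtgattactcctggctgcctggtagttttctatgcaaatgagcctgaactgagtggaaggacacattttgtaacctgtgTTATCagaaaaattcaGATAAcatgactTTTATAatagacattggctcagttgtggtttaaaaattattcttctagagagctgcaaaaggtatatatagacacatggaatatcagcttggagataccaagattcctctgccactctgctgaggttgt

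Motifs were searched on both strands in the 250 bases before every start in the RefSeq table, which holds 27025 genes, and a gene counted if any of its windows matched. The table held 55 of the 63 genes, and the motifs were chosen after the expression values were seen. Among the 16 genes that fell and have a sequence there, 15 held CAAAG, the first letters of the element bound by HNF4, a nuclear receptor of enterocytes and hepatocytes, as did 38 of the 55 genes of the 5 families and 52.2% of all genes. The longer form CAAAGTCCA was in 0 of the 55 genes and in 0.451% of all genes. GATAA, the core bound by GATA factors, was in 8 of the 16, in 24 of the 55 and in 25.5% of all genes, and the CDX motif TTTATNG was in 2 of the 16 and in 11.3% of all genes.

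The antioxidant response element core TGACNNNGC, which NRF2 binds with a small MAF partner, was in 11.5% of all genes. Of the 16 genes that fell Gstm7 held it, and of the 3 that rose Gstm5 held it, beginning 42 bases before the start. The xenobiotic response element core GCGTG, bound by the aryl hydrocarbon receptor, was in 4 of the 16, in Gstm5 at 2 places, and in 30.9% of all genes. In Gstm5 it overlapped both the antioxidant element and the AP-1 motif TGANTCA. That AP-1 motif was in Gstp1 and Mgst2 among the genes that fell and in 7.82% of all genes. The HNF1 half-site GTTAAT, present in 7.49% of all genes, occurred at 2 places before Ugt2a3 and also before Sult1a1, which rose. The TATA box letters TATAAA were in 4 of the 16, in Sult6b2 and in 14.3% of all genes, and 2 matches on opposite strands overlap in Mgst2. In Sult6b2 the match was on the strand opposite to the gene and began 129 bases before the start. A match is a run of letters and says nothing here on binding.

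Glutathione S-transferases join glutathione to electrophiles, and among their soluble classes the mu class held the largest called fall, that of Gstm3. Of 7 Gstm genes 4 fell and 1 rose (57.1% and 14.3%, against 9.65% and 8.97% of all genes), with a median log2 fold change of -1.49. Gstm3 read 7.98, 9.48 and 8.83 in MSI2-induced arrays, against 11.53, 12.27 and 12.10 in control arrays. The groups were separated by more than 2 log2 units, MSI2-induced replicate 1 being lowest. The difference was -3.20 (SE 0.40, adjusted p = 0.00677), or 9.19-fold lower, and the other Gstm3 probe set read 7.20, 8.64 and 7.66 in MSI2-induced arrays against 11.27, 11.87 and 11.96 in control arrays.

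Gstm7 read 6.90, 7.47 and 7.60 in MSI2-induced arrays and 8.36, 9.21 and 9.01 in control arrays (log2 fold change -1.54, SE 0.28, adjusted p = 0.0177). Gstm4 read 7.33, 7.40 and 7.30 in MSI2-induced arrays and 8.10, 9.34 and 9.06 in control arrays (log2 fold change -1.49, SE 0.31, adjusted p = 0.0251). Gstm1 read 8.86, 8.99 and 8.90 in MSI2-induced arrays and 9.65, 10.59 and 10.22 in control arrays (log2 fold change -1.24, SE 0.23, adjusted p = 0.0197). For these 3 genes the groups did not overlap, and the array labelled control replicate 1 was the lowest control. Gstm5 went the other way, with 9.31, 8.65 and 9.30 in MSI2-induced arrays and 8.31, 8.35 and 8.36 in control arrays (log2 fold change 0.75, SE 0.19, adjusted p = 0.0409). Its control arrays were within 0.1 of each other, below every MSI2-induced array.

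Gstm6 read 5.83, 7.45 and 6.62 in MSI2-induced arrays, against 7.48, 9.27 and 8.79 in control arrays (log2 fold change -1.88, SE 0.57). It did not pass the main test (adjusted p = 0.0713) but passed with the replicate block (adjusted p = 0.00359), and replicate 1 was lowest in both groups. Gstm2 had a log2 fold change of -0.51 (adjusted p = 0.111). Without control replicate 3 the calls of Gstm7, Gstm4 and Gstm1 were lost (adjusted p = 0.0765, 0.0979 and 0.0804), while Gstm3 kept its call (0.0406). Gstm5 did not pass when MSI2-induced replicate 3 was left out (adjusted p = 0.138), nor without the array labelled control replicate 1 (0.0598). Genes of 1 Gst class are alike in sequence, so a probe set may also take signal from its neighbours.

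Of the theta class, whose members act on small halogenated compounds among others, 2 of 4 genes fell (50%, against 9.65% of all genes). Gstt3 read 7.37, 8.44 and 7.82 in MSI2-induced arrays and 9.03, 9.93 and 10.09 in control arrays (log2 fold change -1.81, SE 0.37, adjusted p = 0.0243). Gstt2 read 6.56, 7.30 and 6.74 in MSI2-induced arrays and 7.58, 8.12 and 8.21 in control arrays (log2 fold change -1.10, SE 0.25, adjusted p = 0.0300). In both genes replicate 1 was the lowest array of each group. Gstt1 had the same order, with 7.18, 8.003 and 7.93 in MSI2-induced arrays and 8.03, 9.92 and 9.85 in control arrays. Its difference of -1.56 missed the threshold (adjusted p = 0.0994) and passed with the replicate block (0.0130). Gstt4 read 5.11 to 5.40 in MSI2-induced arrays and 5.35 to 5.43 in control arrays. Without MSI2-induced replicate 3 the calls of Gstt3 and Gstt2 were lost (adjusted p = 0.0932 and 0.112).

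Gstp1, the main pi class enzyme, read 11.22, 11.31 and 10.91 in MSI2-induced arrays and 11.75, 12.06 and 11.93 in control arrays. Every MSI2-induced array lay below every control array, and the difference was -0.77 (SE 0.14, adjusted p = 0.0171; 0.0728 without control replicate 3). Gstp3 did not pass (log2 fold change -0.08). Gsto1, an omega class enzyme that reduces dehydroascorbate, read 11.30, 11.40 and 11.56 in MSI2-induced arrays and 11.55, 11.98 and 11.92 in control arrays. Its groups overlapped slightly, and the difference of -0.40 passed with the replicate block (adjusted p = 0.0460) but not in the main test (0.102). Gsto2 had a log2 fold change of 0.25 (adjusted p = 0.153).

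In the alpha class neither of the 2 genes read alone passed. Gsta4, which conjugates the lipid peroxidation product 4-hydroxynonenal, read 10.36, 10.88 and 10.58 in MSI2-induced arrays and 10.36, 9.93 and 9.53 in control arrays. The array labelled control replicate 1 matched the lowest MSI2-induced array, and the difference was 0.66 (SE 0.24, adjusted p = 0.104; 0.0243 without that array). Gsta3 had a log2 fold change of -0.06.

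The microsomal enzymes are membrane proteins of another fold, and Mgst2 can also make leukotriene C4. Mgst2 read 8.38, 9.70 and 8.51 in MSI2-induced arrays and 10.62, 10.89 and 10.70 in control arrays (log2 fold change -1.87, SE 0.35, adjusted p = 0.0191). Mgst3 read 8.72, 9.34 and 8.98 in MSI2-induced arrays and 9.94, 10.53 and 10.24 in control arrays (log2 fold change -1.23, SE 0.21, adjusted p = 0.0154). In both genes MSI2-induced replicate 2 was the highest of its group yet below every control. Mgst1 read 11.09, 11.71 and 10.73 in MSI2-induced arrays and 11.45, 11.08 and 11.12 in control arrays, with overlapping groups and a log2 fold change of -0.04 (95% confidence interval -0.67 to 0.59). Without MSI2-induced replicate 3 the calls of Mgst2 and Mgst3 were lost (adjusted p = 0.0788 and 0.0682).

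**Figure D2:**
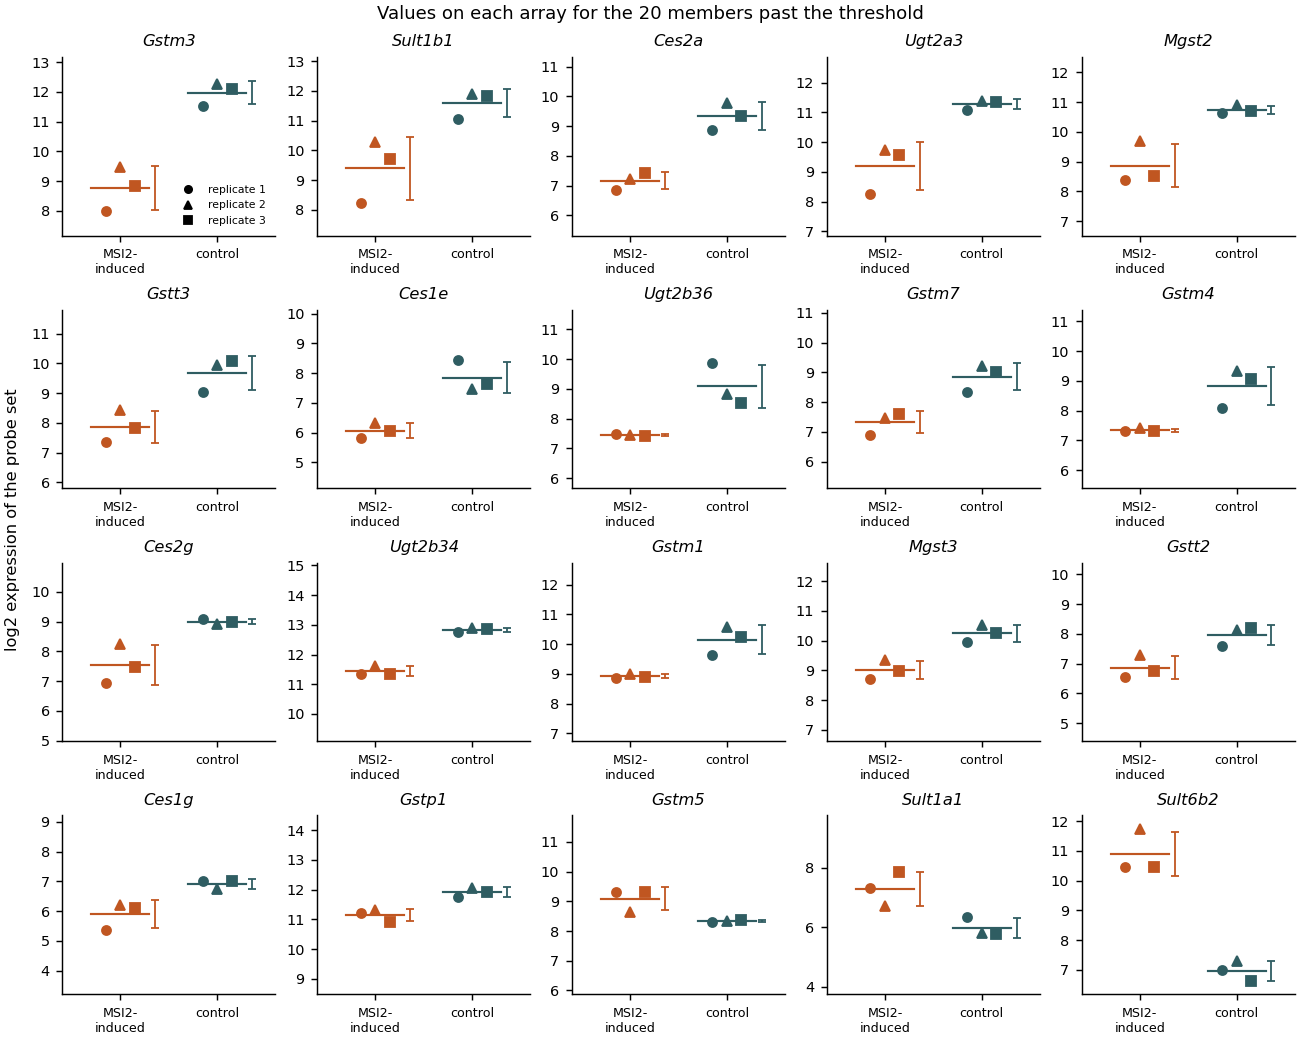
Log2 expression (vertical axis) on each array of the 20 genes past the threshold, MSI2-induced left of control in each panel; circles, triangles and squares are replicates 1, 2 and 3, the horizontal line is the group mean and the bar beside it ± SD (n = 3). Panels differ in their level and, where a gene needs more room, in the length of scale; Gstm3 reads 7.98 to 9.48 in MSI2-induced arrays and 11.53 to 12.27 in control arrays.

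UDP-glucuronosyltransferases of the endoplasmic reticulum attach glucuronic acid. Of 11 Ugt genes 3 fell (27.3%, against 9.65% of all genes) while 0 rose (against 8.97%). All 3 belong to the Ugt2 family, whose 8 genes had a median log2 fold change of -0.999. Ugt2b34 read 11.33, 11.63 and 11.34 in MSI2-induced arrays and 12.76, 12.88 and 12.87 in control arrays (log2 fold change -1.40, SE 0.11, adjusted p = 0.00195). Ugt2a3 read 8.27, 9.74 and 9.58 in MSI2-induced arrays and 11.08, 11.40 and 11.36 in control arrays (log2 fold change -2.08, SE 0.39, adjusted p = 0.0190). Ugt2b36 read 7.47, 7.45 and 7.43 in MSI2-induced arrays and 9.88, 8.83 and 8.53 in control arrays (log2 fold change -1.63, SE 0.34, adjusted p = 0.0244). The replicates of Ugt2b34 were tight in both groups, Ugt2a3 was lowest in MSI2-induced replicate 1, and Ugt2b36 was highest in the array labelled control replicate 1.

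Ugt2b38 read 6.33, 6.09 and 6.45 in MSI2-induced arrays and 7.49, 6.999 and 6.70 in control arrays. Its difference of -0.77 lay just outside the threshold (adjusted p = 0.0537) and passed with the replicate block (0.0439). Ugt2b5 read 4.87, 5.23 and 5.20 in MSI2-induced arrays and 7.55, 5.85 and 5.58 in control arrays, a difference of -1.23 (adjusted p = 0.154; 0.0341 without the array labelled control replicate 1, its highest). Ugt2b35 read 9.04, 8.51 and 9.17 in MSI2-induced arrays and 9.20, 8.09 and 7.94 in control arrays, a difference of 0.50 (adjusted p = 0.412) that passed as a rise without the array labelled control replicate 1 (0.0285). That array was the highest control for Ugt2b36, Ugt2b38, Ugt2b5 and Ugt2b35. Without control replicate 3 the call of Ugt2a3 was lost (adjusted p = 0.0788), and without MSI2-induced replicate 3 that of Ugt2b36 (0.0925). Ugt3a1, Ugt3a2, Ugt8a and Ugt2b1 were at 3.90 to 4.96 in MSI2-induced arrays and 3.95 to 4.94 in control arrays, no higher than the 5.06 reached by Xist in male and Y-linked genes in female arrays, where the transcripts are absent.

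Sulfotransferases transfer sulfate from the donor PAPS to phenols, steroids and amines, and this family had changes in both directions. Of 16 Sult genes 1 fell and 2 rose. These shares of 6.25% and 12.5% were near those of all genes (9.65% and 8.97%). The median log2 fold change was 0.02, as over all genes. Sult6b2, a sulfotransferase of the cytosolic family, read 10.47, 11.75 and 10.47 in MSI2-induced arrays and 6.99, 7.30 and 6.64 in control arrays. The lowest MSI2-induced array lay over 3 log2 units above the highest control, and the difference was 3.92 (SE 0.38, adjusted p = 0.00375), or 15.1-fold higher. Sult1a1, a phenol sulfotransferase, read 7.33, 6.71 and 7.85 in MSI2-induced arrays and 6.36, 5.81 and 5.76 in control arrays (log2 fold change 1.32, SE 0.31, adjusted p = 0.0353).

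Sult1b1, which sulfates phenols and thyroid hormones, read 8.22, 10.27 and 9.71 in MSI2-induced arrays and 11.04, 11.88 and 11.81 in control arrays (log2 fold change -2.18, SE 0.54, adjusted p = 0.0400). MSI2-induced replicate 1 was lower than the other MSI2-induced arrays by over 1 log2 unit. Sult2b1, which sulfates cholesterol, read 8.22, 10.32 and 9.83 in MSI2-induced arrays and 9.68, 10.99 and 10.96 in control arrays. Replicate 1 was lowest in both groups, and the difference of -1.09 passed with the replicate block (adjusted p = 0.0129) but not in the main test (0.292). Sult1d1, which sulfates catecholamines in mice, read 11.41, 11.90 and 12.28 in MSI2-induced arrays and 11.71, 12.18 and 12.44 in control arrays, overlapping with a difference of -0.25 (adjusted p = 0.602; 95% confidence interval -0.91 to 0.42). Without control replicate 3 the calls of Sult1a1 and Sult1b1 were lost (adjusted p = 0.127 and 0.136). For 9 other Sult genes all 6 arrays were at or below 5.06, so a change in them was not measurable here.

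The carboxylesterase genes fell in 4 of 16 cases (25%, against 9.65% of all genes) and rose in 0 (against 8.97%). Their median log2 fold change was -0.80. Ces2a, of the class that predominates in the intestine, read 6.85, 7.24 and 7.42 in MSI2-induced arrays and 8.86, 9.79 and 9.34 in control arrays (log2 fold change -2.16, SE 0.26, adjusted p = 0.00646). Ces2g, of the same class, read 6.93, 8.24 and 7.47 in MSI2-induced arrays and 9.08, 8.92 and 8.99 in control arrays (log2 fold change -1.45, SE 0.31, adjusted p = 0.0282). Both genes had their lowest value in MSI2-induced replicate 1. Ces1e, which anchors beta-glucuronidase in the endoplasmic reticulum of liver, read 5.81, 6.34 and 6.05 in MSI2-induced arrays and 8.45, 7.48 and 7.63 in control arrays (log2 fold change -1.79, SE 0.28, adjusted p = 0.0122). Ces1g, a lipid-metabolising esterase, read 5.36, 6.22 and 6.11 in MSI2-induced arrays and 6.74 to 7.03 in control arrays (log2 fold change -1.03, SE 0.24, adjusted p = 0.0340). The groups of these 4 genes did not overlap.

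Ces2e had the highest mean of the Ces probe sets, with 10.49, 12.05 and 11.58 in MSI2-induced arrays and 11.99, 12.64 and 12.52 in control arrays. MSI2-induced replicate 2 lay just above the array labelled control replicate 1, and the difference of -1.01 missed the threshold (adjusted p = 0.145), with a blocked value of 0.0203. Ces1d, a triacylglycerol hydrolase, had a difference of -0.95 (adjusted p = 0.225; 0.0143 with the block), and Ces2b one of -0.90 (0.0745; 0.00490 with the block and 0.0202 without the array labelled control replicate 1). With the block 7 Ces genes fell in place of 4, where 13.1% of all genes fell. Ces1f read 8.35, 10.27 and 10.17 in MSI2-induced arrays and 11.09, 10.53 and 10.35 in control arrays (log2 fold change -1.06, adjusted p = 0.233). Ces3b had a log2 fold change of 0.68 (adjusted p = 0.383). Without MSI2-induced replicate 3 the calls of Ces1e and Ces2g were lost (adjusted p = 0.0565 and 0.105), and without control replicate 3 or the array labelled control replicate 1 that of Ces1g (0.121 and 0.0512). The remaining genes of the 5 families did not pass and are in the plot of log2 fold changes.

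**Figure D3:**
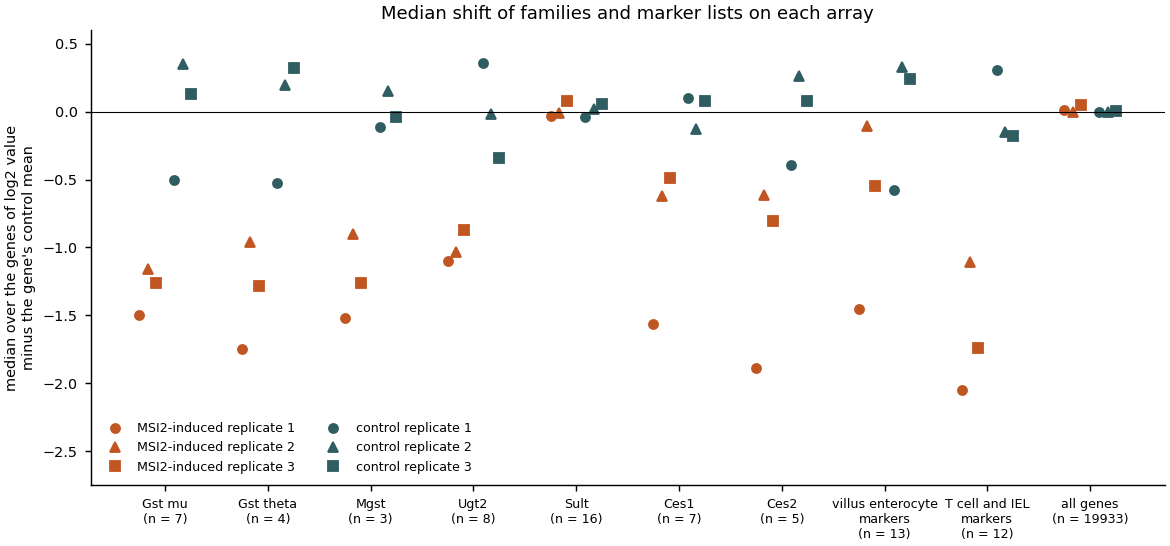
Median over the genes of a class of the log2 value minus the gene's control mean (vertical axis) on each array, MSI2-induced arrays left of control arrays, for classes of the 5 families, 2 marker lists and all genes. In the Gst mu class the MSI2-induced arrays are at -1.50, -1.16 and -1.26 and the control arrays at -0.50, 0.35 and 0.13.

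The arrays of a group did not move equally in the different classes. The median deviation from the control mean was -1.50, -1.16 and -1.26 for the Gst mu genes in MSI2-induced replicates 1 to 3, against -0.50, 0.35 and 0.13 in control replicates 1 to 3. For the Ces2 class it was -1.89, -0.62 and -0.80 in MSI2-induced arrays, against -0.39, 0.26 and 0.08 in control arrays. For the Ugt2 genes it was -1.10, -1.03 and -0.87 in MSI2-induced arrays, against 0.36, -0.02 and -0.34 in control arrays. MSI2-induced replicate 1 was the lowest MSI2-induced array for 14 of the 17 genes that fell and for 40 of the 63 genes. The array labelled control replicate 1 was the lowest control for 13 of the 17 and the highest for the other 4.

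Many of these genes lie in tandem groups, and members of 1 group did not all move alike. The Gstm group of chromosome 3 reads, in RefSeq order, Gstm5, Gstm7, Gstm6, Gstm3, Gstm2, Gstm1 and Gstm4. Gstm5, which rose, is at the edge of the group and on the plus strand. The other 6 genes are on the minus strand and had lower values in every MSI2-induced array than in any control array. Such a separation in the lower direction was found in 17.5% of all genes, and Gstm6 and Gstm2 did not pass the main test. The group of chromosome 5 holds 8 Ugt2 genes followed by Sult1b1, Sult1d1 and Sult1e1. Of its 11 genes Ugt2b34, Ugt2b36, Ugt2a3 and Sult1b1 fell. Ugt2b35, its only Ugt2 gene on the plus strand, had a positive difference that did not pass in limma (adjusted p = 0.412). Ugt2b1 and Sult1e1, both at the level of absent transcripts, also had positive differences that did not pass. Elsewhere Ces2a, Ces2g and Mgst2 on the plus strand fell, and Sult6b2 and Sult1a1 on the minus strand rose. A link of strand with direction was not tested. The Gstt group of chromosome 10 had 2 of 4 genes lower, where 9.65% of all genes fell. The Ces1 group with Ces5a and the Ces2 group with Ces3 and Ces4a, both on chromosome 8, each had 2 of 8. In the Sult2a group of chromosome 7 none of 3 genes passed and all were at the level of absent transcripts.

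**Figure D4:**
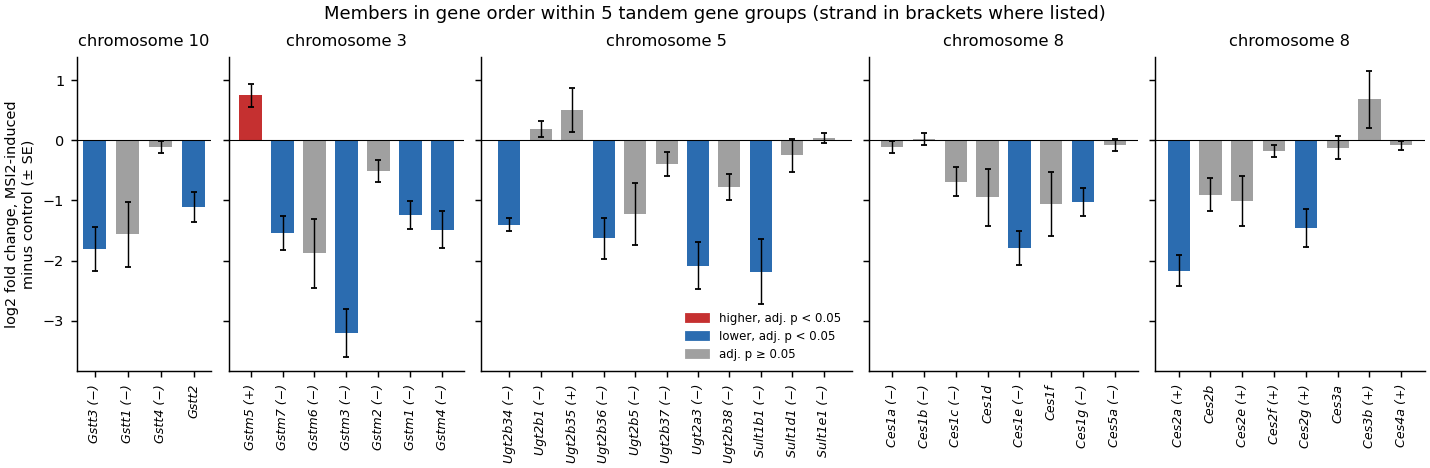
Log2 fold changes (MSI2-induced minus control, vertical axis, bars ± SE) of the genes in 5 tandem groups, in their order along the chromosome and coloured by the call; distances are not to scale. In the chromosome 3 group Gstm5 lies at 0.75, and the 6 genes after it, from Gstm7 to Gstm4, lie between -3.20 and -0.51.

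Sulfation and glucuronidation depend on donor synthesis, and 1 enzyme of each donor pathway is given first. Papss1, which makes PAPS, read 7.36, 8.05 and 7.35 in MSI2-induced arrays and 9.02, 9.18 and 9.12 in control arrays (log2 fold change -1.51, SE 0.20, adjusted p = 0.00787). Ugdh, which makes UDP-glucuronate, read 10.92, 11.28 and 11.11 in MSI2-induced arrays and 11.83, 11.94 and 11.82 in control arrays (log2 fold change -0.76, SE 0.11, adjusted p = 0.0101). Gclc, the catalytic subunit of the limiting enzyme of glutathione synthesis, rose instead, with 12.26, 12.25 and 12.33 in MSI2-induced arrays and 10.90, 9.92 and 9.99 in control arrays (log2 fold change 2.01, SE 0.26, adjusted p = 0.00768). In all 3 genes the groups were apart by at least the spread within either group. Of the 15 genes in the list of cofactor supply 4 fell and 5 rose (26.7% and 33.3%). Over all genes 9.65% fell and 8.97% rose, with 13.1% and 12.7% in the fit with the replicate block. Without the array labelled control replicate 1 the shares of all genes were 14.4% and 13.4%. These shares of all genes apply to the lists below too. The called genes included the PAP phosphatase Bpnt1 and the Golgi PAPS carrier Slc35b2 (fell), and the other PAPS carrier Slc35b3 (rose by 0.46, adjusted p = 0.0389). The glutathione synthetase Gss and the glutathione-degrading Chac1 and Chac2 rose too. Leaving out an array took away the calls of Ugdh (without control replicate 2, adjusted p = 0.0509), Slc35b2 and Slc35b3 (without control replicate 2, 0.0994 and 0.133), Bpnt1 and Gss (without MSI2-induced replicate 3, 0.129 and 0.0882), and Chac1 and Chac2 (without control replicate 3, 0.0911 and 0.0696). Slc35b3 passed in 0 of the 6 fits that left out 1 array. Without the array labelled control replicate 1, 5 genes of the list fell and 4 rose. The list's median was 0.43, against 0.02 over all genes, and Papss2 did not pass (log2 fold change -0.38, adjusted p = 0.767). Gclm, which codes for the other subunit of the enzyme of Gclc, did not pass either (-0.28, 0.615). Without the array labelled control replicate 1 Gclm fell (-0.67, 0.0108).

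Other conjugation and detoxification enzymes fell in 5 of 22 cases (22.7%, against 9.65% of all genes) and rose in 0 (against 8.97%), with a median of -0.21. Akr1c14, a hydroxysteroid dehydrogenase, read 4.73, 4.82 and 5.11 in MSI2-induced arrays and 8.28, 7.85 and 7.21 in control arrays (log2 fold change -2.89, SE 0.27, adjusted p = 0.00349). Of its MSI2-induced values 2 lay below 5.06, the highest reading of absent transcripts, and the other just above it, so the size of the fall is uncertain. Nqo2, a quinone reductase, had a log2 fold change of -1.47 (adjusted p = 0.00260), and Gstz1, a glutathione transferase of tyrosine breakdown, one of -2.31 (0.0190). As3mt, which methylates arsenic, fell by 1.09 on the log2 scale (adjusted p = 0.0204) and Ephx1, the microsomal epoxide hydrolase, by 0.70 (0.0479). Nqo1 (log2 fold change 0.16, adjusted p = 0.814; 0.0252 without the array labelled control replicate 1) and the deacetylase Aadac (-0.80, 0.0605; 0.0363 with the replicate block) did not pass. The calls of Gstz1 (without control replicate 3, adjusted p = 0.0798), As3mt (without MSI2-induced replicate 3, 0.0847) and Ephx1 (without control replicate 2, 0.141) were lost. Ephx1 passed in only 1 of the 6 fits that left out 1 array. With the block 9 of the 22 genes fell and 2 rose, and without the array labelled control replicate 1, 8 fell and 2 rose.

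Among 15 transporters 4 fell and 1 rose (26.7% and 6.67%, against 9.65% and 8.97% of all genes), with a median of -0.49. With the block 7 fell and 3 rose, and without the array labelled control replicate 1, 5 fell and 3 rose. Abcc2, the apical exporter of glutathione and glucuronide conjugates, read 9.72, 10.19 and 9.88 in MSI2-induced arrays and 11.60, 11.96 and 11.77 in control arrays (log2 fold change -1.85, SE 0.15, adjusted p = 0.00249). The uptake carrier Slco2b1 fell by 1.95 (adjusted p = 0.00477), and the exporter Abcc4 rose by 1.15 (adjusted p = 0.00713). Of 9 enzymes that remove conjugated groups or break down glutathione conjugates 2 fell (22.2%, against 9.65% of all genes), and 6 fell with the block (against 13.1%). The 2 were Ggt6 (log2 fold change -0.97, adjusted p = 0.0186) and Sgsh (-0.50, 0.0358). Ggt6 did not pass without control replicate 2 (adjusted p = 0.0760), nor Sgsh without control replicate 3 (0.127). Sgsh passed in only 1 of the 6 fits that left out 1 array. Without the array labelled control replicate 1, 4 of the 9 fell and 1 rose.

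Of 17 receptors and transcription factors that control such genes 5 fell (29.4%, against 9.65% of all genes) and 2 rose (11.8%, against 8.97%). These counts were the same with the replicate block and without the array labelled control replicate 1. The vitamin D receptor Vdr read 9.13, 9.82 and 9.65 in MSI2-induced arrays and 11.45, 12.15 and 12.25 in control arrays (log2 fold change -2.42, SE 0.27, adjusted p = 0.00517). The retinoid X receptor Rxra, the partner of several such receptors, fell too (log2 fold change -1.65, adjusted p = 0.0189), as did Nr1i3, which encodes CAR (-2.41, 0.0326), the intestinal factor Cdx2 (-0.82, 0.0170) and Keap1, the repressor of NRF2 (-0.44, 0.0200). The small MAF gene Mafg rose by 0.88 (adjusted p = 0.00628), as did Nr1h4, the bile acid receptor FXR (1.15, 0.0319). Ahr (log2 fold change 0.72, adjusted p = 0.0596), Nr1i2, which encodes PXR (-0.47, 0.315), Nfe2l2, which encodes NRF2 (-0.37, 0.142), and Hnf4a (-0.57, 0.159) did not pass. The calls of Rxra and Keap1 were lost without control replicate 3 (adjusted p = 0.0791 and 0.0794), that of Cdx2 without control replicate 2 (0.0718), and those of Nr1i3 and Nr1h4 without MSI2-induced replicate 3 (0.119 and 0.105). Vdr and Mafg stayed past the threshold in all 6 fits that left out 1 array.

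Of 17 known NRF2 targets outside the 5 families, 3 rose (17.6%, against 8.97% of all genes) and 1 fell (5.88%, against 9.65%). Their median was 0.14. Those that rose were Slc7a11, the cystine importer (4.87, adjusted p = 0.00109), Gclc and the haem oxygenase Hmox1 (2.48, 0.0237), and the biliverdin reductase Blvrb fell (-0.94, 0.0432). Without the array labelled control replicate 1, 6 of the 17 rose and 2 fell, Blvrb and Gclm. Of 6 AHR targets Tiparp rose (1.26, adjusted p = 0.0401), and of 8 PXR targets 0 passed in limma. An unadjusted p under 0.05 was found for 3 of the 8, against 33.2% of all genes, and 2 fell with the block and 3 without the array labelled control replicate 1. Of these targets Hmox1 and Blvrb did not pass without control replicate 3 (0.0905 and 0.143), nor Tiparp without MSI2-induced replicate 3 (0.116), and Slc7a11 and Gclc passed in all 6 such fits. Blvrb passed in only 1 of the 6.

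**Figure D5:**
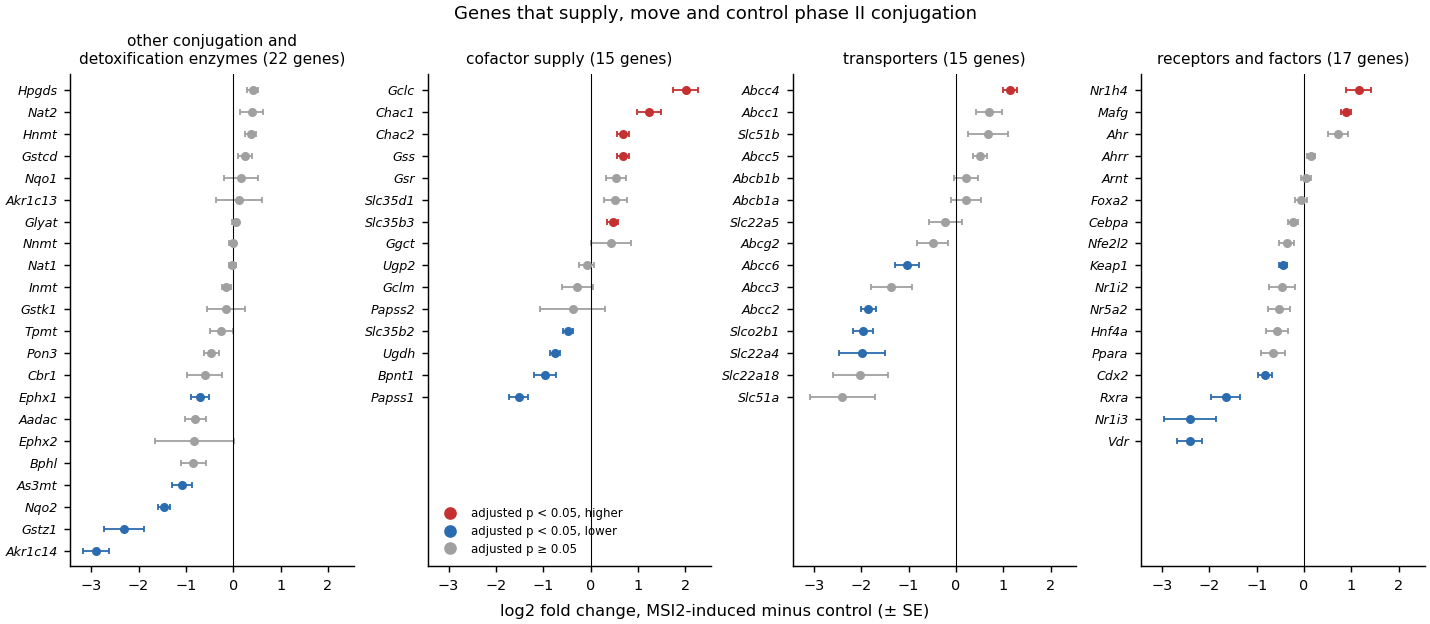
Log2 fold changes (MSI2-induced minus control, horizontal axis, bars ± SE) of the measured genes in 4 lists of related function, one point a gene coloured by its call. In the cofactor list Gclc lies at 2.01 and Papss1 at -1.51.

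Fewer cells of a type and less RNA per cell cannot be told apart in these bulk samples, so markers were read beside the results. The 10 markers of intestinal epithelium had a log2 summed level of 15.78 to 15.93 in MSI2-induced arrays and 15.72 to 15.84 in control arrays. Of these Vil1 and Cdx2 fell and Krt18 and Cdh1 rose (20% each way, against 9.65% and 8.97% of all genes). Cdh1 did not pass with the replicate block (adjusted p = 0.0718). Without control replicate 2 Vil1 (0.148), Cdx2 (0.0718) and Cdh1 (0.145) did not pass. Epcam read 12.60 to 12.87 in MSI2-induced arrays and 12.71 to 12.81 in control arrays. The 13 villus enterocyte markers had a summed level of 15.59 to 16.68 in MSI2-induced arrays and 16.24 to 17.05 in control arrays. None of them passed in limma, and 2 of the 13 had an unadjusted p under 0.05, against 33.2% of all genes. Yet 12 of the 13 had a lower mean in MSI2-induced arrays, as did 9121 of all 19933 genes. The median log2 fold change of these markers was -0.66, against 0.02 over all genes. With the replicate block 8 fell, against 13.1% of all genes. Without the array labelled control replicate 1, 1 fell, against 14.4% of all genes. Their median deviation was -1.45, -0.11 and -0.54 in MSI2-induced replicates 1 to 3 and -0.58, 0.33 and 0.24 in control replicates 1 to 3, so replicate 1 was lowest in both groups, as it was for many of the detoxification genes.

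Of 12 T cell and intraepithelial lymphocyte markers 11 fell (91.7%, against 9.65% of all genes). The summed level of the 12 was 10.25 to 11.46 in MSI2-induced arrays and 12.57 to 13.23 in control arrays. Of 7 measured crypt markers 3 fell (42.9%), namely Olfm4, Ascl2 and Axin2. Of 7 enteroendocrine markers 2 fell (28.6%, and 3 with the block). Of 4 markers of the distal small intestine Slc10a2 and Nr1h4 rose (50%, against 8.97% of all genes) and Osr2 fell (25%). The part that these shifts have in the results on detoxification genes was not tested. Liver markers, examined because liver is rich in these enzymes, had a summed level of 8.16 to 8.34 in MSI2-induced arrays and 8.15 to 8.33 in control arrays, and 0 of the 6 measured passed in limma or had an unadjusted p under 0.05. Alb read 5.29 to 5.53 in MSI2-induced arrays and 5.16 to 5.29 in control arrays. Sex was not balanced between the groups. With sex, read from the arrays, as a block, 12 of the 20 called genes of the 5 families kept their call. Those that lost it were Gstm5, Gstt3, Gstt2, Ugt2a3, Ugt2b36, Sult1b1, Ces2g and Ces1g, with adjusted p from 0.0523 to 0.0895.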

How the data were processed

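The authors deposited log2 expression values per probe set, in 1 column per array. Partek and RMA are named in the submitters' processing notes, with no version or setting. RMA subtracts background, puts arrays on a common distribution and summarises probes. A global change in RNA amount is thereby removed, and changes of dim genes are compressed. Arrays give no read totals, so precision is limited by how many there are. The build behind the array annotation is unknown here.

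Of 28350 probe sets, 21780 named 1 gene, 1618 several and 4952 none. RefSeq (GRCm38.p6) matched 21689 of the 21780 by gene identifier, including those of all 63 genes of the 5 families. Each of 19933 genes was read from its probe set with the highest mean (996 genes had a choice), with no filter on dim values. The test was limma 3.58.1 (R 4.3.3), using lmFit and eBayes with a single group term, two-sided, adjusted by Benjamini-Hochberg across all genes.

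The members and lists were chosen with earlier results of these data known. Named genes are a fixed set of 13, in each family the called genes with the largest changes (up to 4 each way) and the gene with the highest mean, and up to 3 called genes with the lowest p from each pathway list. Any others were picked with their values known.

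Replicate numbers recur in both groups. Across genes, the deviations of arrays 1, 2 and 3 from their group means correlated by 0.52, 0.41 and 0.13 between the groups. Each exceeds 0.1, so the number was entered as a block in an alternative fit, and the blocked value stands beside results it changes. The main test did not use the number. Replicate 1 was male in the MSI2-induced group and female in the control group, while replicates 2 and 3 had the same sex in both. No label says what a number shares, and the correlation of control replicate 3 with MSI2-induced replicate 2 was higher (0.32) than with its own number. In simulated data with 19933 genes, 74% of the genes changed by 1 log2 unit and 90% of those changed by 2 were recovered, with 11 false calls. The simulation drew independent normal noise and changed 100 genes by each size. It held no outlying array and no replicate or sex effect, so it does not give the accuracy of the calls in these data. The alternatives were the replicate block, sex as a block, the mean of a gene's probe sets, a filter on dim genes, renewed quantile normalization, an intensity trend, array weights, a 2-fold minimum and leaving out each array.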

Additional observations from a re-analysis of the deposited data

Results flagged for a closer look

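Probe sets that name several genes were outside the main comparison, and 3 of the 12 that carry names of these families fell in a limma fit over all 28350 probe sets, in which 7.33% of probe sets fell. The probe set shared by 8 genes of the Ugt1a locus, which encodes glucuronosyltransferases for bilirubin and phenols, read 8.20, 9.26 and 8.69 in MSI2-induced arrays and 9.93, 9.94 and 9.84 in control arrays, with a log2 fold change of -1.19 (adjusted p = 0.0316). Both probe sets shared by Gstp1 and Gstp2 fell, by -0.99 (adjusted p = 0.0142) and -1.02 (0.0149), which is the direction of the Gstp1 probe set. The 2 shared by Gstp1 and Gstp2 read almost the same on every array, such as 9.45 and 9.47 in MSI2-induced replicate 1 and 10.41 and 10.43 in control replicate 3. They also name Gstp1, already called above, so they are not separate results, and the count of 3 includes both. The main comparison did not use these 3 probe sets, and each remained past the threshold with the replicate block.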

How the results depend on the processing

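The 20 called genes of the 5 families kept their direction in each fit that left out 1 array, but their number past the threshold depended on the arrays. Leaving out each array gave 4 to 23 genes lower and 1 to 4 higher, against 17 and 3 with all arrays. By family these ranges were 1 to 10 lower and 0 to 1 higher for Gst, 0 to 2 lower for Mgst, 1 to 5 lower for Ugt, 0 to 1 lower and 1 to 2 higher for Sult, and 1 to 5 lower for Ces. For the pathway lists they were 7 to 31 lower and 4 to 16 higher, and for all genes 476 to 2879 lower and 476 to 2663 higher. With the replicate block 2 Sult, 7 Ces and 33 pathway genes were lower. Over all genes 2605 were lower (13.1%) and 2534 higher (12.7%) in that fit. With array weights 7 Ces and 36 pathway genes were lower, 6 genes of the 5 families (3 of them Gst) and 20 pathway genes were higher, and over all genes 3442 were lower and 3630 higher. With sex as a block 10 genes of the 5 families were lower (1 Ugt, 0 Sult and 2 Ces), 0 Gst were higher, 13 pathway genes were lower, and over all genes 1091 were lower and 1068 higher. Among genes above the median level 1 Sult gene was higher. The fits that left out an array have fewer samples; the cause of the other shifts was not tested. The log2 fold change of Mgst1 ranged from -0.31 to 0.18 when arrays were left out, being 0.0044 without MSI2-induced replicate 1, 0.18 without MSI2-induced replicate 3 and 0.077 without control replicate 1, and that of Nqo1 from -0.10 to 0.60, being -0.011 without control replicate 2 and -0.10 without control replicate 3. Over the 52 named or called genes and 13 alternatives (the 2-fold minimum was applied to counts only), 547 values kept their direction and side of the threshold, 99 lost the call, 21 gained it and 5 changed sign. Dim probe sets, such as those of 9 Sult genes, limit what can be seen.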

Other observations

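The 4 probe sets that name Gsta1 and Gsta2, alpha class enzymes of the small intestine, together with 2 predicted genes, had log2 fold changes of -0.30 to -0.22 and did not pass in limma (adjusted p of 0.750 to 0.800). They cannot be divided between these genes.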
